A study of Homo sapiens with 30 samples.

Results

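The genes described here are 9 regulators of cyclin-dependent kinases (CDKs): the phosphatase genes CDC25A, CDC25B, CDC25C and CDKN3, the inhibitory kinase genes WEE1 and PKMYT1, and the inhibitor genes CDKN1B, CDKN2C and CDKN2D. They were chosen by name; each matched 1 entry among the 60617 genes listed for a library, and all 9 passed the filter on low counts in both cell lines. RNA was measured in HCT116 and SW480, established human colorectal cancer lines kept in different media. Each line received, at 10 nM for 48 h, a control siRNA (siControl), siBRD8-6 or siBRD8-36 against BRD8, or siTIP60-2 or siTIP60-11 against TIP60, so that every group, the controls included, consisted of transfected cells. TIP60, encoded by KAT5, is the catalytic subunit of a histone acetyltransferase complex, and BRD8 is a bromodomain subunit of the same complex. Each of the 10 groups held 3 libraries, 30 in all. Nothing in the labels says that these came from separate cultures, so the tests below measure the spread among libraries, which could be technical. The design asks how depletion of each subunit changes RNA levels in each line, whether both siRNAs of a target do the same, and whether the lines respond alike.

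CDKs drive DNA replication and mitosis and are held back by phosphates that WEE1 and PKMYT1 place on them. CDC25 phosphatases remove these phosphates: CDC25A acts from the start of S phase onward, while CDC25B and CDC25C are best known for triggering entry into mitosis. CDKN3 removes a different, activating phosphate from CDKs. CDKN1B, known as p27, binds cyclin-CDK complexes, above all those of CDK2, and CDKN2C and CDKN2D bind CDK4 and CDK6. Several of these genes are transcribed periodically through the cell cycle, and much of the control of their proteins comes after transcription, which RNA levels do not show. In RNA from whole cultures, fewer cells in a phase of the cycle and less RNA per cell cannot be told apart.

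HCT116 libraries were the deeper ones, with totals of 13.4 to 18.6 M counts (M stands for mega). Those of SW480 had 7.07 to 11.7 M counts, and the shallowest SW480 group was the control, at 7.07 to 7.69 M counts. The part of depth in the SW480 results was not tested. BRD8 RNA was at 20.8% and 14.2% of control with siBRD8-6 and siBRD8-36 in HCT116, and at 24.5% and 21.2% in SW480. KAT5 RNA was at 7.36% and 9.91% of control with siTIP60-2 and siTIP60-11 in HCT116, and at 8% and 13.6% in SW480. With siBRD8-36, KAT5 itself stood at 80.5% of control in HCT116 and 75.0% in SW480. Colon epithelium markers summed to between 3412 and 7569 CPM (counts per M counts of a library) in every library, with KRT20 and CDX1 at 0 in the SW480 controls and CDX1 at 0 in the HCT116 controls. This sum was lower in the HCT116 controls (3412 to 4022 CPM) than in every siRNA group of that line (5668 to 7569 CPM), and in SW480 lower in the controls (4120 to 4208 CPM) than with the BRD8 siRNAs (5125 to 5741 CPM). Fibroblast markers summed to at most 70.2 CPM and leukocyte markers to at most 23.3 CPM. The highest fibroblast sum came with siBRD8-36 in HCT116 (56.7 to 70.2 CPM against 19.4 to 21.8 CPM in controls, with DCN at 0), and the highest leukocyte sum with siTIP60-2 in HCT116 (22.4 to 23.3 CPM against 6.11 to 8.49 CPM, with CD3E at 0). In SW480 the fibroblast sum was 14.2 to 17.2 CPM with siBRD8-6 against 8.07 to 8.79 CPM in controls (COL1A2, COL3A1, DCN and LUM at 0), and the leukocyte sum 5.33 to 6.48 CPM with siBRD8-36 against 0.562 to 1.94 CPM (PTPRC at 0). Their part in the results was not tested.

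In the HCT116 controls, CDC25B had the highest level per transcript length of the 9 genes, at 154 ± 14.7 TPM (transcripts per M transcripts, which corrects for length; SD, n = 3 libraries here and below). CDKN3 (67.6 ± 0.795 TPM) and PKMYT1 (55.0 ± 3.04 TPM) followed with no overlap between their libraries. CDKN1B (30.2 to 39.5 TPM) and WEE1 (30.2 to 40.2 TPM) overlapped each other. CDC25A (16.5 to 20.6 TPM), CDC25C (15.6 to 17.4 TPM) and CDKN2D (13 to 17.5 TPM) formed an overlapping group, and CDKN2C was lowest at 6.99 to 8.01 TPM. In the SW480 controls the order began with CDKN3 (141 ± 3.91 TPM), then CDC25B (73.6 ± 2.50 TPM), CDKN1B (46.5 ± 2.06 TPM) and PKMYT1 (25.4 ± 4.26 TPM), whose libraries did not overlap. CDC25A (17.6 to 19.0 TPM) and WEE1 (12.9 to 17.7 TPM) overlapped, as did WEE1 and CDC25C (13.2 to 16.3 TPM). CDKN2C (4.73 to 6.24 TPM) and CDKN2D (3.14 to 3.44 TPM) were the lowest there.

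**Figure D1:**
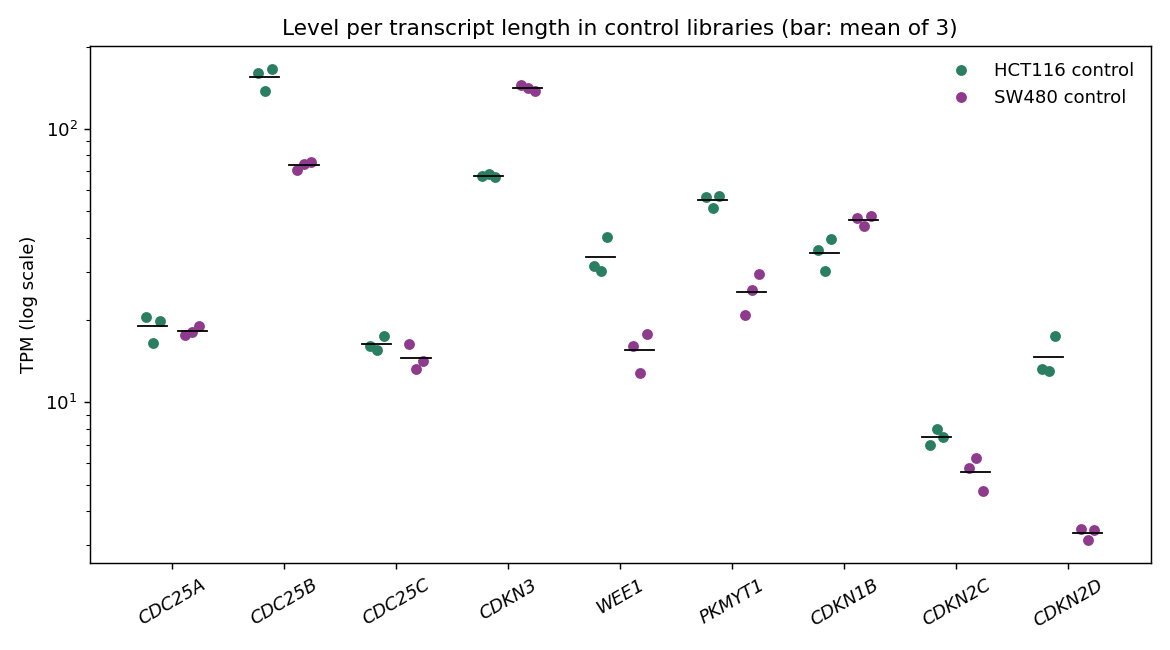
Level per transcript length (TPM, log axis) of the 9 genes in the control libraries of each line; points are libraries, bars the mean of 3. CDC25B leads in HCT116 and CDKN3 in SW480, and CDKN2D is the lowest in SW480.

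Between the control groups of the lines, 78.5% of the 17411 genes tested differed in edgeR's quasi-likelihood test with Benjamini-Hochberg adjustment (37% higher and 41.5% lower in SW480), so the 8 of 9 members that differed stand against a high background. CDKN3 was higher in SW480 by 1.37 ± 0.086 on the log2 scale of counts (SE, adjusted p = 3.5e-16), CDKN1B by 0.69 ± 0.057 and CDC25A by 0.21 ± 0.076. CDC25A did not differ on the TPM scale, where its value was -0.05. Lower in SW480 were CDKN2D (-1.76 ± 0.19, adjusted p = 4.8e-10), PKMYT1 (-0.93 ± 0.086), WEE1 (-0.78 ± 0.078), CDC25B (-0.72 ± 0.052) and CDKN2C (-0.57 ± 0.15). The CDKN2C difference missed the threshold without SW480 control library 3 (-0.38, adjusted p = 0.051 with edgeR). For CDC25C the difference was 0.06 with a 95% interval of -0.16 to 0.27.

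Promoter sequence was read for the members because genes of the G2 and M phases often carry a CHR element (TTTGAA or TTCGAA) near a CCAAT box, while genes of the G1/S transition often carry E2F-type sites (here TTTGGCG or GCGGGAA). RefSeq promoter windows (GRCh38.p14), taken as the 250 bases before a transcript start, were held for 7 members in 15 windows. On either strand a CHR match occurred in 14.3% of all 35116 windows, CCAAT in 32% and an E2F-type match in 6.95%. Of the 15 member windows, 3 held a CHR match, 9 held CCAAT and 5 held an E2F-type match. Some windows of a gene overlap, as in CDC25C, so the same site can be counted in several windows. The CHR matches belonged to CDC25B, CDC25C and CDKN3, and the E2F-type matches to CDC25A, CDC25B, CDC25C and CDKN2C, while each of the 7 members had CCAAT in at least 1 window. Some members had several windows, and the share of all genes with a match in any window was not computed. A match is a description of letters and not a shown binding site. The sequences of the phosphatase genes are printed, 5′ to 3′ on the strand of the gene with motif matches in capitals, since these genes include the ones that fell most below. For CDC25A the whole window is given. For CDKN3 the stretch before the first annotated exon is given, and for CDC25B and CDC25C 30 bases around the CHR match, because 250 and 73 of the 250 bases of those windows lie in annotated exons of the gene.
CDC25A, chr3:48188418-48188667, minus strand: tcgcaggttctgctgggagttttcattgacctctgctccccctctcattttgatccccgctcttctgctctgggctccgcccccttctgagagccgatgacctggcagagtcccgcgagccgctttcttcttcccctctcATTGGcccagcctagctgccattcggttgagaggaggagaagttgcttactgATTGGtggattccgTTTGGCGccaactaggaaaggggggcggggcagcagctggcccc
CDC25B, chr20:3796260-3796289, plus strand: ctgctgttatttTTCGAAtatataaggagg
CDC25C, chr5:138331817-138331846, minus strand: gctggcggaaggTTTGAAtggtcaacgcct
CDKN3, chr14:54396757-54396848, plus strand: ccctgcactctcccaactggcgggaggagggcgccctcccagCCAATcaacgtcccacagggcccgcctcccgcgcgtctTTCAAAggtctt

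Counted from the transcript start, here one inside the gene at chr5 position 138331804, the CHR match of CDC25C began at base -30 and the nearest CCAAT match, on the opposite strand, at base -85. In CDC25B the CHR match began at base -38 and a CCAAT match at base -73, before the start at chr20 position 3796310. That start too lies inside the gene. In CDKN3 the start used, at chr14 position 54397007, again lies inside the gene, which is annotated from position 54396849. From that start the CHR match, read on the opposite strand, began at base -170, with CCAAT matches at bases -208 and -83. The CHR match of CDKN3 lies in the printed stretch, which ends just before the annotated gene start. CDC25A had no CHR match in its window, and had CCAAT matches at bases -110 and -58 and the E2F-type match at base -44. The CDKN1B window held only CCAAT matches (bases -174 and -50) and the CDKN2D window only 1 (base -234).

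**Figure D2:**
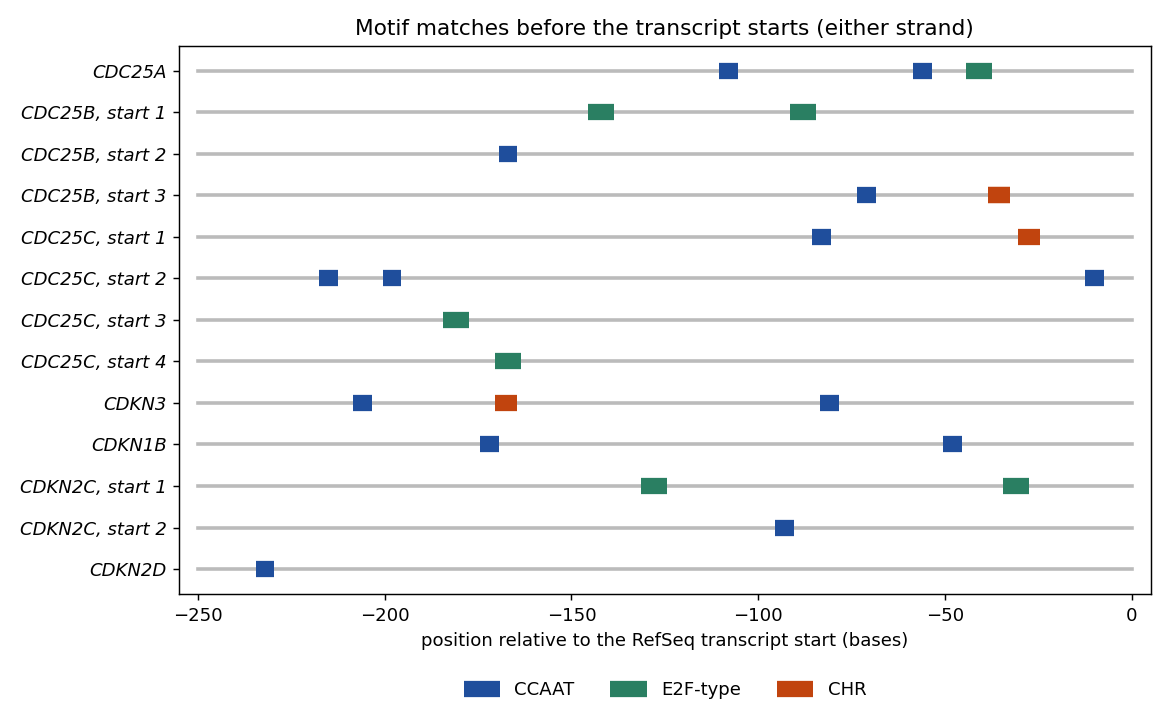
Motif matches on either strand in the 250 bases before each RefSeq start that holds at least 1 match (x axis: bases from the start). CHR matches begin at base -38 in CDC25B, -30 in CDC25C and -170 in CDKN3, each counted from a start inside the annotated gene.

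Against control siRNA, a call for BRD8 or TIP60 required that the changes with its siRNAs had the same sign and that the larger of their p-values passed after adjustment over all genes tested. With the BRD8 siRNAs in HCT116, the calls took in 24.4% of the 15919 genes tested, 12.2% in the higher and 12.2% in the lower direction. Of the 9 members 5 fell (CDKN3, CDC25C, CDKN2C, PKMYT1 and CDC25B) and none rose; the count was 3 without siBRD8-6 library 1, 2 without siBRD8-6 library 3 and 1 on the TPM scales. The median log2 change of the members was -0.71, beside -0.02 over all genes tested. In SW480, with 26.9% of 15277 tested genes called (12.9% higher, 14% lower), 3 members fell (CDKN3, CDC25C and PKMYT1) and none rose, with a median of -0.37 beside -0.0036 (1 called on the TPM scales). With the TIP60 siRNAs in HCT116, where 27.9% were called (13.7% higher and 14.1% lower), 4 members fell (CDKN2D, CDC25C, CDKN2C and CDKN3) and CDC25B rose, with a median of -0.25 beside -0.03. In SW480, where 23.6% were called (11.5% higher and 12.1% lower), 4 fell (CDKN1B, CDC25C, CDKN3 and CDC25A) and 2 rose (CDKN2C and WEE1), with a median of -0.30 beside 0.0075. These 6 calls became 3 to 5 without 1 library (3 without SW480 control library 1), 3 with DESeq2 or no filter and 2 on the TPM scales. The BRD8 and TIP60 comparisons of a line share the same control libraries. On the TPM scale most SW480 genes stood higher in the siRNA groups than in controls: the median of all genes was 0.23 with the BRD8 siRNAs and 0.18 with the TIP60 siRNAs at log2(TPM + 1). Among called SW480 genes, 85.3% were then higher with BRD8, beside 47.9% on counts, and 82.3% with TIP60, beside 48.6% on counts (58.7% with upper quartile scaling).

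**Figure D3:**
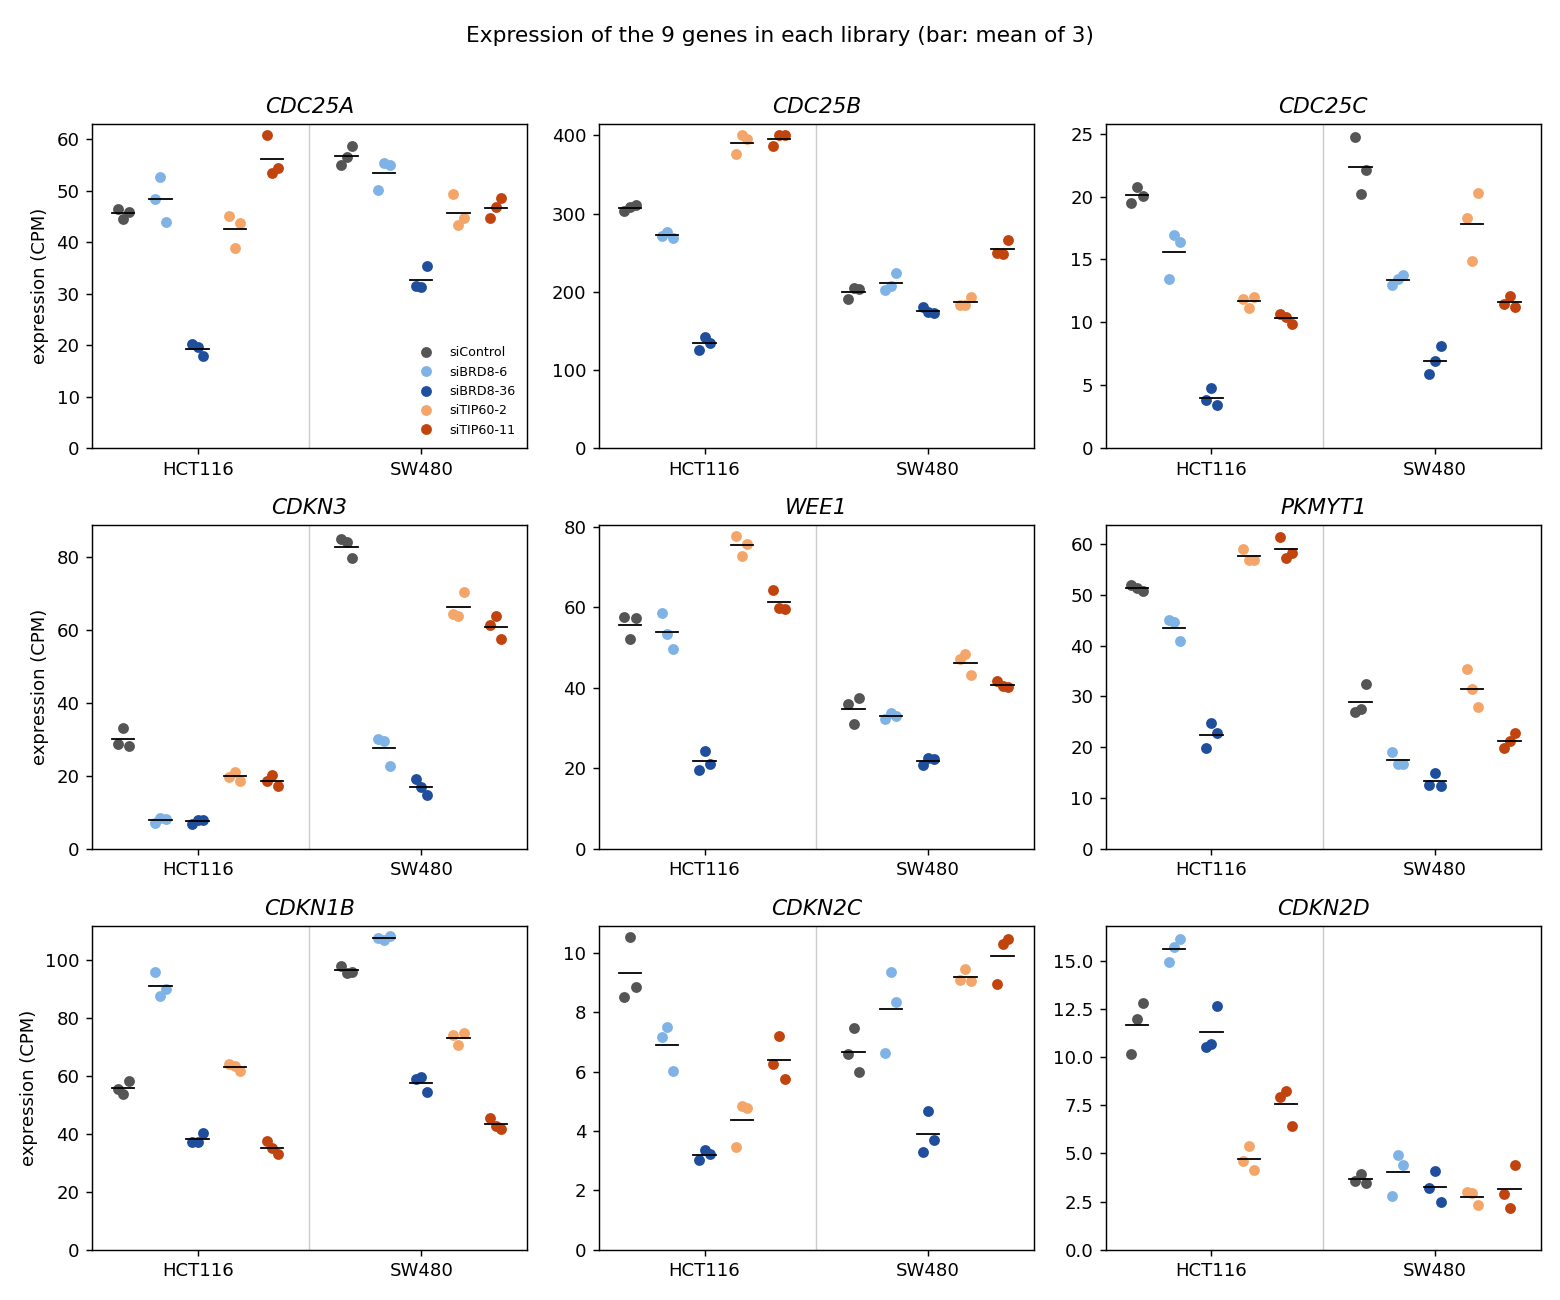
Expression (CPM) of the 9 genes in each library, grouped by line and siRNA; points are libraries, bars the mean of 3. CDKN3 is low with both BRD8 siRNAs in both lines, while CDC25A and WEE1 are lowest in the siBRD8-36 libraries.

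CDKN3 (GRCh38 chr14:54396849-54420218) was the member with the largest fall with BRD8 depletion in both lines by the mean of both siRNAs; with siBRD8-36 alone in HCT116, CDC25C fell further. In HCT116 its control libraries were at 28.6, 33.2 and 28.3 CPM. With siBRD8-6 they were at 7.17, 8.40 and 8.12 CPM, and with siBRD8-36 at 6.74, 7.93 and 8.03 CPM, so the libraries of the BRD8 siRNAs overlapped each other and all lay far below the controls. These means are 26.3% and 25.2% of control. The mean change of both siRNAs was -1.95 ± 0.080 (SE; edgeR adjusted p = 6.5e-11), and siBRD8-36 differed from siBRD8-6 by only -0.06 (95% interval -0.28 to 0.16). In SW480 the controls were at 85.0, 84.1 and 79.8 CPM, siBRD8-6 at 30.2, 29.6 and 22.8 CPM, and siBRD8-36 at 19.1, 17.1 and 14.7 CPM, with no overlap among the 3 groups. The mean change there was again -1.95 ± 0.078 (edgeR adjusted p = 2.2e-13). Here siBRD8-36 went lower than siBRD8-6 (-0.68 ± 0.11, edgeR adjusted p = 4.4e-06).

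With the TIP60 siRNAs CDKN3 fell less. HCT116 libraries were at 19.8, 21.2 and 18.7 CPM with siTIP60-2 and at 18.6, 20.3 and 17.4 CPM with siTIP60-11, all below every control. The change was -0.63 ± 0.075 (edgeR adjusted p = 3.3e-05). In SW480 the values were 64.6, 64.0 and 70.5 CPM with siTIP60-2 and 61.4, 63.9 and 57.5 CPM with siTIP60-11, again below all controls (-0.38 ± 0.072, edgeR adjusted p = 0.0044). On the TPM scale the SW480 change was -0.13 and was not called (limma adjusted p = 1). CDKN3 was lower with BRD8 than with TIP60 siRNAs in both lines, by -1.32 ± 0.072 in HCT116 and -1.56 ± 0.067 in SW480 (edgeR adjusted p = 1.2e-11 and 4.8e-17).

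CDC25C (chr5:138285265-138338355, minus strand) fell in all 4 comparisons of a target with control. HCT116 controls were at 19.5, 20.8 and 20 CPM; siBRD8-6 gave 13.4, 17.0 and 16.4 CPM, and siBRD8-36 gave 3.79, 4.77 and 3.38 CPM. Both sets lay below the controls, the siBRD8-36 libraries at 19.8% and the siBRD8-6 libraries at 77.7% of the control mean. The mean change was -1.35 ± 0.091 (edgeR adjusted p = 0.011), and the siRNAs differed by -1.98 ± 0.12 (adjusted p = 6e-11). The BRD8 call rests on siBRD8-6, and without its library 1 it was lost (-1.30, edgeR adjusted p = 0.087), as it was on the TPM scale. In SW480 the controls were at 24.7, 20.2 and 22.1 CPM, siBRD8-6 at 13, 13.5 and 13.7 CPM, and siBRD8-36 at 5.91, 6.88 and 8.08 CPM (-1.21 ± 0.11, adjusted p = 2.6e-05). There too siBRD8-36 went lower than siBRD8-6 (-0.95 ± 0.14, adjusted p = 1.4e-06).

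TIP60 depletion brought CDC25C in HCT116 to 11.8, 11.2 and 12 CPM with siTIP60-2 and to 10.6, 10.5 and 9.89 CPM with siTIP60-11, all below every control (-0.87 ± 0.088, edgeR adjusted p = 8e-06). In SW480 siTIP60-2 gave 18.3, 14.9 and 20.3 CPM, 1 of them inside the control range, and siTIP60-11 gave 11.5, 12.1 and 11.2 CPM, all below it. That change, -0.64 ± 0.10, passed narrowly (edgeR adjusted p = 0.044). It was lost with DESeq2 (adjusted p = 0.12), with upper quartile scaling, with no filter and on the TPM scale. It was also lost without any 1 of 7 libraries: SW480 control 1 or 3, siTIP60-2 library 1 or 2, or siTIP60-11 library 1, 2 or 3 (-0.65 to -0.56, edgeR adjusted p = 0.053 to 0.28). BRD8 itself lies 106 kb from CDC25C on chromosome 5. CDC25C also overlaps FAM53C on the opposite strand over 6421 bases, and the strand setting of the counting is not given in the sources used here. FAM53C rose with the TIP60 siRNAs (0.56 ± 0.064 in HCT116 and 0.62 ± 0.060 in SW480) and was not called with the BRD8 siRNAs, opposite to or unlike CDC25C.

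CDC25B (chr20:3786772-3806121), the most highly expressed phosphatase gene in HCT116, went in opposite directions with the targets there. HCT116 controls were at 303, 308 and 311 CPM, siBRD8-6 at 272, 277 and 269 CPM, and siBRD8-36 at 125, 141 and 135 CPM, all below the controls. The change was -0.69 ± 0.041 (edgeR adjusted p = 0.011), of which siBRD8-36 gave far more (-1.20 ± 0.050) than siBRD8-6 (-0.17 ± 0.048). The call was lost with no filter, on the TPM scale and without siBRD8-6 library 3 (-0.68, edgeR adjusted p = 0.053). The TIP60 siRNAs gave 377, 400 and 396 CPM (siTIP60-2) and 387, 401 and 401 CPM (siTIP60-11), all above the controls by a similar amount (0.36 ± 0.042, edgeR adjusted p = 1.5e-05). In SW480 the controls were at 191, 204 and 204 CPM and siTIP60-11 alone stood clearly above them, at 249, 248 and 266 CPM (0.35 ± 0.055). With siTIP60-2 the values were 183, 183 and 193 CPM (-0.10 ± 0.056), so the gene was not called for TIP60 in SW480. The BRD8 siRNAs there gave 202, 207 and 223 CPM (siBRD8-6), overlapping the controls, and 180, 174 and 172 CPM (siBRD8-36), below them, with no call. On the TPM scale CDC25B was called higher for TIP60 in SW480 (0.36, limma adjusted p = 0.018).

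CDC25A (chr3:48157146-48188402, minus strand) was lowered by siBRD8-36 and not detectably by siBRD8-6. In HCT116 the controls were at 46.4, 44.5 and 45.9 CPM, siBRD8-6 at 48.5, 52.7 and 43.8 CPM, overlapping them, and siBRD8-36 at 20.2, 19.6 and 17.9 CPM. The values against control were 0.08 ± 0.076 and -1.25 ± 0.083 (edgeR adjusted p = 0.38 and 1.9e-10), so CDC25A was not called for BRD8. In SW480 siBRD8-36 was again the lowest group, with 54.9, 56.5 and 58.7 CPM in controls, 50.1, 55.3 and 55.0 CPM with siBRD8-6, and 31.4, 31.2 and 35.4 CPM with siBRD8-36 (-0.79 ± 0.077). With TIP60 siRNAs CDC25A fell in SW480, to 49.4, 43.2 and 44.6 CPM and to 44.7, 46.8 and 48.5 CPM, all below the controls (-0.30 ± 0.065, edgeR adjusted p = 0.0054). On the TPM scale this change was -0.10 and was not called (limma adjusted p = 1). In HCT116 siTIP60-2 overlapped the controls (45.0, 38.8 and 43.7 CPM) and siTIP60-11 lay above them (60.8, 53.4 and 54.3 CPM).

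**Figure D4:**
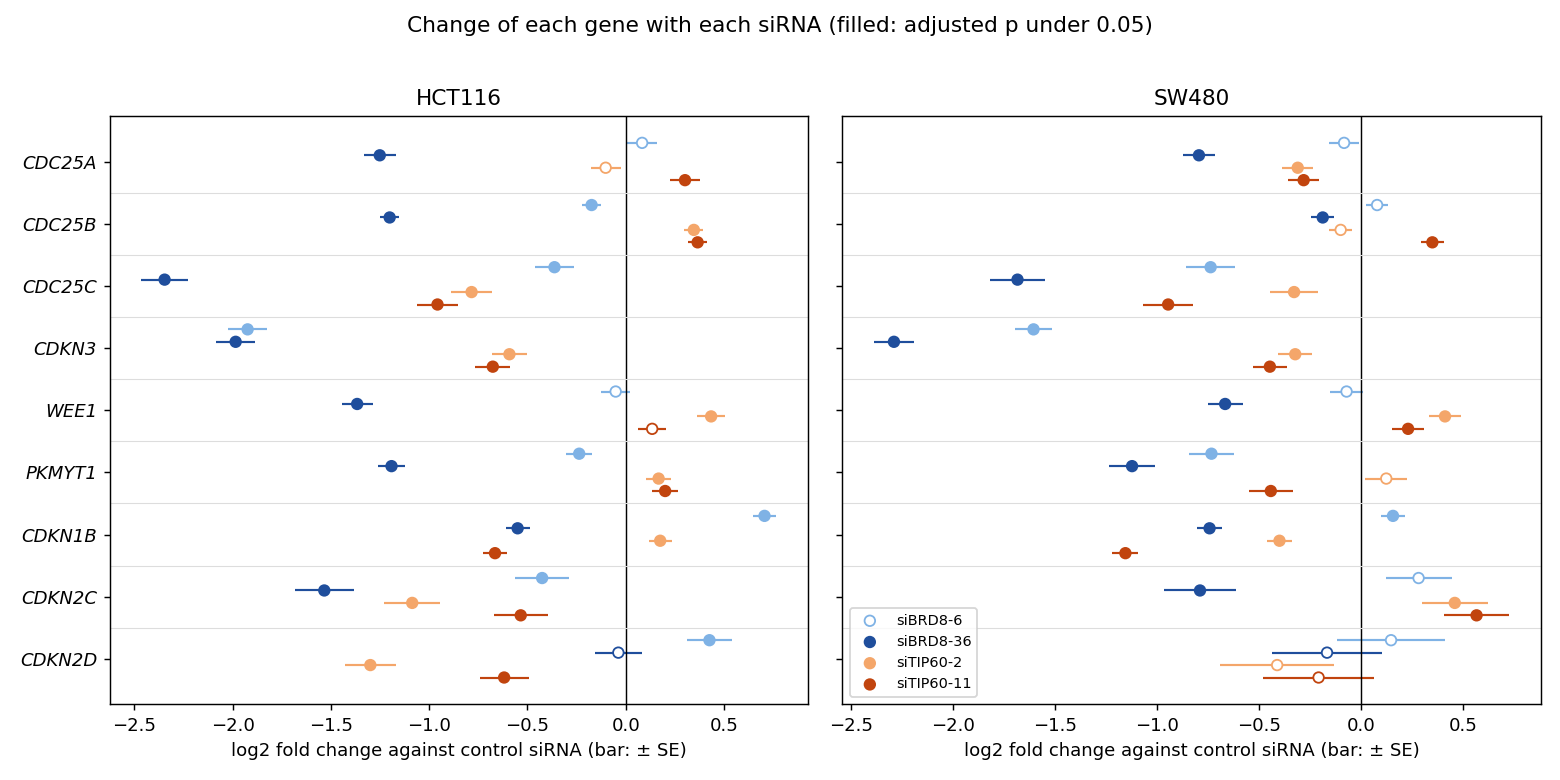
Log2 fold change of each gene with each siRNA against control in HCT116 (left) and SW480 (right); bars are ± SE and filled points have an adjusted p under 0.05 in edgeR. The siBRD8-36 points lie to the left of the siBRD8-6 points for every gene except CDKN3 in HCT116, where they overlap.

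WEE1 (chr11:9573681-9593457), the kinase that acts on nuclear CDK1 and CDK2, followed CDC25A with the BRD8 siRNAs. HCT116 controls were at 57.6, 52.1 and 57.4 CPM, siBRD8-6 at 58.5, 53.3 and 49.7 CPM and siBRD8-36 at 19.7, 24.2 and 21.2 CPM, so that siBRD8-36 alone separated from the controls (-1.37 ± 0.078 against -0.05 ± 0.072). In SW480 the controls were at 36.0, 30.9 and 37.4 CPM, siBRD8-6 at 32.3, 33.8 and 33.0 CPM and siBRD8-36 at 20.9, 22.5 and 22.2 CPM. With the TIP60 siRNAs WEE1 rose in SW480. Its values there were 47.2, 48.4 and 43.1 CPM with siTIP60-2 and 41.7, 40.5 and 40.1 CPM with siTIP60-11, above all controls (0.32 ± 0.070, edgeR adjusted p = 0.033). This call was lost with DESeq2 (adjusted p = 0.12), with no filter and without any 1 of 5 libraries, SW480 control 1 or 2 or siTIP60-11 library 1, 2 or 3 (0.24 to 0.35, edgeR adjusted p = 0.051 to 0.26). In HCT116 siTIP60-2 gave 77.6, 72.7 and 75.8 CPM and siTIP60-11 64.3, 59.8 and 59.5 CPM, above the controls, but the gene was not called for TIP60 because siTIP60-11 missed the threshold (0.13 ± 0.072, edgeR adjusted p = 0.13).

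PKMYT1 (chr16:2968024-2980539, minus strand), the membrane-bound kinase of CDK1, fell with the BRD8 siRNAs in both lines. HCT116 controls were at 52.0, 51.3 and 50.7 CPM, siBRD8-6 at 45.1, 44.7 and 40.8 CPM and siBRD8-36 at 19.9, 24.9 and 22.7 CPM (-0.71 ± 0.058, edgeR adjusted p = 0.011). Without siBRD8-6 library 3 (-0.69, edgeR adjusted p = 0.079), or on the TPM scale, this call was lost. In SW480 the controls were at 26.9, 27.5 and 32.4 CPM, siBRD8-6 at 19.0, 16.7 and 16.7 CPM and siBRD8-36 at 12.6, 15 and 12.4 CPM, all below the controls (-0.93 ± 0.095, edgeR adjusted p = 6.6e-06; not called on the TPM scale). The TIP60 siRNAs in HCT116 gave 56.8 to 61.4 CPM, above the controls in all 6 libraries (0.18 ± 0.057), but missed the threshold (edgeR adjusted p = 0.064), and were called when only the groups compared were fitted (adjusted p = 0.025). In SW480 siTIP60-2 overlapped the controls (27.9 to 35.3 CPM) and siTIP60-11 lay below them (19.8 to 22.8 CPM). PKMYT1 overlaps PAQR4 and KREMEN2 on the opposite strand, over 4245 and 360 bases. Neither fell with the BRD8 siRNAs: KREMEN2 rose in SW480 (0.92 ± 0.11), and PAQR4 was not called in either line. With the TIP60 siRNAs KREMEN2 fell in HCT116 (-0.91 ± 0.087) and SW480 (-0.55 ± 0.12), and PAQR4 fell in HCT116 (-0.59 ± 0.063).

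CDKN1B (chr12:12715058-12722371), the CIP/KIP inhibitor of the set, moved in opposite directions with the BRD8 siRNAs. HCT116 controls were at 55.4, 53.8 and 58.2 CPM, siBRD8-6 at 95.7, 87.5 and 90.1 CPM and siBRD8-36 at 37.0, 37.0 and 40.3 CPM, with no overlap among the 3 groups. Against control these are 0.71 ± 0.058 and -0.55 ± 0.061 (edgeR adjusted p = 1.1e-08 and 2.9e-07), and the direct difference of the siRNAs was -1.26 ± 0.060 (adjusted p = 2.1e-12). SW480 repeated the pattern with a smaller rise: 98.0, 95.4 and 95.8 CPM in controls, 108, 107 and 108 CPM with siBRD8-6, and 59.0, 59.6 and 54.4 CPM with siBRD8-36. The siRNAs of TIP60 also differed. In HCT116 siTIP60-2 gave 64.0, 63.5 and 61.6 CPM, above the controls, and siTIP60-11 gave 37.5, 35.2 and 32.8 CPM, below them (difference -0.84 ± 0.062, edgeR adjusted p = 2.4e-09). In SW480 both lay below the controls, at 74.0, 70.5 and 74.8 CPM and at 45.5, 42.7 and 41.8 CPM, and CDKN1B fell (-0.78 ± 0.053, edgeR adjusted p = 1.3e-05; -0.56 and not called at log2(TPM + 1), limma adjusted p = 0.23). CDC25A, WEE1 and CDKN1B had no call for either target in HCT116, and of these CDKN1B was the one that all 4 siRNAs changed, each with its own adjusted p of at most 0.020 in edgeR.

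CDKN2C (chr1:50960745-50974633), an INK4 inhibitor of CDK4 and CDK6, fell in HCT116 with both targets. Controls were at 8.51, 10.5 and 8.86 CPM. The BRD8 siRNAs gave 7.17, 7.50 and 6.03 CPM (siBRD8-6) and 3.02, 3.36 and 3.22 CPM (siBRD8-36), all below the controls (-0.98 ± 0.12, edgeR adjusted p = 0.027). That call was lost with DESeq2 (adjusted p = 0.064), on the TPM scale and without control library 2 or siBRD8-6 library 1 or 3 (-0.99 to -0.89, edgeR adjusted p = 0.054 to 0.14). The TIP60 siRNAs gave 3.47, 4.85 and 4.77 CPM and 6.25, 7.18 and 5.74 CPM (-0.81 ± 0.12, edgeR adjusted p = 0.0059), lost only at log2(TPM + 0.1) (limma adjusted p = 0.054).

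In SW480 CDKN2C went the other way with TIP60 depletion. Controls were at 6.59, 7.45 and 5.98 CPM, siTIP60-2 at 9.09, 9.46 and 9.04 CPM and siTIP60-11 at 8.93, 10.3 and 10.5 CPM, all above the controls (0.51 ± 0.14, edgeR adjusted p = 0.036). These libraries held only 40 to 107 counts of CDKN2C. The call was lost with DESeq2 (adjusted p = 0.15), with no filter, on the TPM scale and without SW480 control library 1 or 3 or siTIP60-2 library 1, 2 or 3 (0.44 to 0.52, edgeR adjusted p = 0.062 to 0.15). With siBRD8-6 the values were 6.61, 9.35 and 8.34 CPM and with siBRD8-36 3.30, 4.66 and 3.69 CPM, and there was no call for BRD8. The lengths that RSEM gives as the mean of the CDKN2C transcripts were 1796 to 1926 bases in HCT116 controls and 1358 to 1497 bases in SW480 controls.

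CDKN2D (chr19:10566462-10569059, minus strand), the other INK4 inhibitor, was called lower in HCT116 for TIP60. It was not called there for BRD8, whose siRNAs differed. Controls were at 10.1, 12 and 12.8 CPM, siTIP60-2 at 4.59, 5.37 and 4.16 CPM and siTIP60-11 at 7.93, 8.25 and 6.43 CPM, all below the controls (-0.96 ± 0.11, edgeR adjusted p = 0.0007). siBRD8-6 gave 14.9, 15.7 and 16.1 CPM, above the controls (0.43 ± 0.12), and siBRD8-36 gave 10.5, 10.7 and 12.6 CPM, within them. In SW480 CDKN2D had 20 to 52 counts per library, over a range of 2.14 to 4.90 CPM. The siTIP60-2 libraries (2.31 to 2.99 CPM) lay below the controls (3.44 to 3.94 CPM), and the libraries of the other siRNAs overlapped them. The TIP60 value there was -0.31 with a 95% interval of -0.78 to 0.16. The HCT116 value has an error of its own, so this interval alone does not settle whether the lines differed. The lines are compared directly below.

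The siRNAs of BRD8 differed across the set. In HCT116 8 of 9 members were lower with siBRD8-36 than with siBRD8-6, all but CDKN3, where 56.7% of all genes differed in either direction. In SW480 8 of 9 were lower, all but CDKN2D, where 52.8% of all genes differed, again in either direction. Neither share is thus a match for the member counts, which are for 1 direction. The median log2 difference of the members was -1.11 in HCT116 and -0.68 in SW480, beside 0 and -0.0014 over all genes. BRD8 RNA itself was lower with siBRD8-36 in HCT116 (-0.55 ± 0.11), and in SW480 the difference was -0.22 (95% interval -0.44 to 0.00). For TIP60, siTIP60-11 against siTIP60-2 gave 3 higher (CDC25A, CDKN2C and CDKN2D) and 2 lower members (CDKN1B and WEE1) in HCT116, where 46% of all genes differed; the CDC25A difference was lost on the TPM scale. In SW480 it gave 1 higher (CDC25B) and 4 lower members (CDKN1B, CDC25C, PKMYT1 and WEE1), where 45.3% of all genes differed. Of the latter genes 48.4% were higher with siTIP60-11 on counts and 28.2% at log2(TPM + 1). The SW480 difference of WEE1 (-0.18 ± 0.074, edgeR adjusted p = 0.049) was lost with DESeq2, under each other scaling and filter and without any 1 of 5 libraries, siTIP60-2 library 1 or 2 or siTIP60-11 library 1, 2 or 3 (-0.20 to -0.15, edgeR adjusted p = 0.070 to 0.18).

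Set directly against the TIP60 siRNAs, the BRD8 siRNAs left most members lower. In HCT116, where 61.8% of all genes differed (30% higher and 31.7% lower with BRD8), 6 members were lower with BRD8 and 2 higher. The widest gaps among the lower ones were CDKN3 (-1.32), CDC25B (-1.04 ± 0.035) and WEE1 (-0.99 ± 0.053). CDKN2D (1.15 ± 0.089) and CDKN1B (0.32 ± 0.043) were higher with BRD8, and for CDKN2C the difference was -0.17 (95% interval -0.38 to 0.04; called at -0.25 without siTIP60-2 library 1, edgeR adjusted p = 0.048). In SW480, where 59.9% differed (29.7% higher and 30.2% lower), 7 members were lower with BRD8, among them CDKN3 (-1.56), PKMYT1 (-0.77 ± 0.077) and CDKN2C (-0.77 ± 0.11), and CDKN1B was higher (0.48 ± 0.044). The SW480 difference of CDC25A (-0.14 ± 0.053, edgeR adjusted p = 0.022) was lost with DESeq2, with no filter, on the TPM scale and without any 1 of 5 libraries: siBRD8-6 library 1, siBRD8-36 library 1 or 2, siTIP60-2 library 1 or siTIP60-11 library 3 (-0.13 to -0.11, edgeR adjusted p = 0.055 to 0.080). CDKN2D was not called (0.30 ± 0.19) but was without siTIP60-11 library 3 (0.47, edgeR adjusted p = 0.039). These means over a pair of siRNAs hide the spread between them, which for CDKN1B runs in opposite directions.

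The lines were compared through an interaction term in a fit of all 30 libraries. For BRD8, 34.4% of 17411 genes responded differently (21.9% higher and 12.5% lower in SW480), beside 4 of 9 members. By the mean of both siRNAs, CDKN2C (0.79 ± 0.19), CDC25B (0.70 ± 0.063) and WEE1 (0.41 ± 0.097) were less lowered in SW480, and CDKN1B was lower there (-0.30 ± 0.069). The siRNAs disagreed within these means. With siBRD8-6 in SW480, CDKN2C stood at 121% and CDC25B at 106% of control. WEE1 was at 96.6% in HCT116 and 95.2% in SW480 with siBRD8-6, and at 38.9% and 63.0% with siBRD8-36. CDKN1B moved in opposite directions with the BRD8 siRNAs in each line. CDKN3 differed by 0.07 (95% interval -0.15 to 0.30; called at 0.26 at log2(TPM + 0.1), limma adjusted p = 0.033), and the CDKN1B difference was lost on the TPM scale (-0.09). For TIP60, 31.1% differed (18% higher and 13.1% lower), beside 7 of 9 members. The widest gap was that of CDKN2C (1.36 ± 0.18, edgeR adjusted p = 4.8e-07), which fell in HCT116 and rose in SW480. CDKN2D (0.69 ± 0.25) and CDKN3 (0.29 ± 0.11) were higher in SW480, and CDKN1B (-0.49 ± 0.070), CDC25A (-0.35 ± 0.093), PKMYT1 (-0.30 ± 0.11) and CDC25B (-0.19 ± 0.063) were lower. Several of these calls were fragile. CDKN3 lost its call in 17 of 27 alternatives and CDKN2D in 13 of 27, DESeq2 and no filter among them in both. PKMYT1 lost it without SW480 control library 3 (-0.30, edgeR adjusted p = 0.050) and on the TPM scale. CDC25A and CDC25B lost it on the TPM scale, where the CDC25B value turned to 0.0022. The percentage of higher calls among all genes also moved with the setting, from 63.7% for BRD8 to between 45.4% (only the groups compared) and 83.9% (log2(TPM + 0.1)), and from 57.9% for TIP60 to between 46.1% (stricter filter) and 81.9% (log2(TPM + 0.1)).

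Other genes of the pathway were read from lists by role. Among the other CDK inhibitors, CDKN1A (p21) rose in HCT116 with the BRD8 siRNAs (1.21 ± 0.064) and with the TIP60 siRNAs (1.41 ± 0.065), as did CDKN2B (0.61 ± 0.076 and 1.36 ± 0.075), whereas CDKN2A fell with TIP60 (-0.44 ± 0.065). In SW480 none of the 4 was called for BRD8, and CDKN2B rose with TIP60 (0.80 ± 0.085). Thus in HCT116 CDKN1A and CDKN2B rose in the libraries in which CDKN2C fell. Of the CDKs and cyclins, which are what the 9 genes act on, 5 of 11 tested fell with BRD8 in HCT116 and 6 of 12 fell and 1 rose in SW480. Of all genes with BRD8, 12.2% were called lower in HCT116, and 12.9% higher and 14% lower in SW480. CDK1, the substrate of WEE1, PKMYT1 and the CDC25 enzymes, fell with BRD8 in HCT116 (-1.48 ± 0.049) and in SW480 (-1.90 ± 0.076). CDK1 also fell with TIP60 (-0.63 ± 0.047 and -0.65 ± 0.070), while CDK6, a partner of the INK4 inhibitors, rose (0.86 ± 0.12 and 0.68 ± 0.11).

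Of 13 genes that act upstream of the CDC25, WEE1 and CDKN1B proteins (12 kinases and BORA, a cofactor of AURKA), 5 fell and 2 rose with BRD8 in HCT116 and 6 fell and 4 rose in SW480. PLK1, which activates CDC25C and marks WEE1 for destruction, fell with BRD8 (-0.71 ± 0.051 and -0.78 ± 0.059) and less with TIP60 (-0.32 ± 0.051 and -0.40 ± 0.058). Of 10 ubiquitin ligase parts, CKS1B, a cofactor for the breakdown of CDKN1B, fell in all 4 comparisons, with -1.21 ± 0.082 and -1.71 ± 0.066 for BRD8 and -0.56 ± 0.082 and -0.74 ± 0.064 for TIP60, in HCT116 and SW480 in turn. SKP2 and CUL1, also in this list, were not called in any of the 4 comparisons. With BRD8, 2 of the 10 parts fell and 2 rose in HCT116, and 4 fell and 3 rose in SW480. These list counts stand beside the 12.2% of all genes called in each direction with BRD8 in HCT116, and 12.9% higher and 14% lower in SW480, and with lists this short 2 in a direction is near that background. Of the adaptor proteins that bind phosphorylated CDC25, SFN rose in HCT116 with both targets (1.23 ± 0.085 and 1.37 ± 0.085) and the other 6 members were not called with BRD8 there. With TIP60 in HCT116, YWHAH rose (0.38 ± 0.037) and YWHAZ fell (-0.27 ± 0.045). In SW480 SFN was not called, YWHAE fell with both targets, and YWHAQ and YWHAZ fell with TIP60. Of 19 E2F, RB and DREAM regulators, which control the transcription of cell cycle genes, 6 fell and 1 rose with BRD8 in HCT116 and 7 fell and 3 rose in SW480. MYBL2 and LIN9, which act on G2/M genes, fell with BRD8 in both lines (MYBL2 -0.76 ± 0.052 and -0.82 ± 0.061). FOXM1, LIN52 and LIN54 fell with BRD8 in SW480 but were not called in HCT116, and LIN37 was not called in either line. RBBP4 fell with TIP60 in HCT116 (-1.37 ± 0.042) and in SW480 (-1.45 ± 0.060). The rest of this list did not move in 1 direction with TIP60 in HCT116. There E2F1 (0.72 ± 0.080), LIN54 (0.53 ± 0.073), E2F4 (0.36 ± 0.045) and TFDP1 (0.17 ± 0.039) rose, while E2F3 and E2F8 fell. In SW480 E2F3 and E2F5 also fell with TIP60. Of the FOXO factors, known activators of CDKN1B, none of 3 was called in HCT116, and in SW480 FOXO4 (1.21 ± 0.15) and FOXO1 (0.74 ± 0.15) rose and FOXO3 fell (-0.32 ± 0.072) with BRD8, while FOXO3 rose with TIP60 (0.61 ± 0.070). The lists were chosen with earlier results of these libraries known, and their counts are descriptions.

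Markers of cycle phases moved with the BRD8 results. With BRD8, 12.2% of all genes tested were called lower in HCT116 and 14% in SW480. Of 12 S phase markers, 10 fell in each line, with a median of -1.04 in both, beside all-gene medians of -0.02 and -0.0036. Of 12 G2 and M markers, 7 fell in HCT116 and 10 in SW480, with medians of -0.98 and -1.17. CDKN3 (-1.95 in both lines) and CDC25C (-1.35 and -1.21) lay below those medians, and CDC25B (-0.69 and -0.05) above them. With TIP60 the S phase medians were -0.05 in HCT116 and 0.09 in SW480, and of the G2 and M markers 4 of 12 fell in HCT116 (median -0.20) while in SW480 2 rose and 1 fell (median -0.0062). CDKN3 and CDC25C were called lower in SW480 with TIP60 while most G2 and M markers were not. Both calls were lost on the TPM scale. Of all genes with TIP60, 14.1% were called lower in HCT116, and 11.5% higher and 12.1% lower in SW480. Among the CDKs and cyclins in SW480, CDK1 (-0.65), CDK4 (-0.22), CCNA2 (-0.80), CCNB1 (-0.39) and CCNB2 (-0.39) were also called lower with TIP60, and CDK6 (0.68) higher. The part of cycle phase in these values was not tested.

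Across the 30 libraries, with the mean of each line subtracted, the genes most like each member in log2 CPM were listed by Pearson's r. These are descriptions: the points share library, depth and siRNA group. CDKN3 was most like TMEM106C (0.96), ECT2 (0.96) and PRC1 (0.95). CDC25C was most like RAB27A (0.96), NEK2 (0.96) and FBXO5 (0.95). WEE1 was most like NUCKS1 (0.98), MCM2 (0.96) and INCENP (0.96), and PKMYT1 most like ME2 (0.96), CENPM (0.95) and EXO1 (0.95). CDC25B was most like HMGA2 (0.96), UBE3C (0.93) and PCDH7 (0.92), and CDC25A most like QSOX2 (0.95), DVL2 (0.94) and LYRM4 (0.94). CDKN1B was most like HINT3 (0.93), CUL1 (0.92) and YWHAG (0.91), values near those of CDC25B. The INK4 inhibitors had lower values: CDKN2C with MBOAT2 (0.88), TCF19 (0.88) and TSPAN6 (0.87), and CDKN2D with EVI5L (0.87), NISCH (0.85) and MRS2 (0.84). Among the members, r was highest for WEE1 and PKMYT1 (0.90) and for CDC25B and WEE1 (0.86). CDKN2D had negative values with CDC25B (-0.42), WEE1 (-0.40), PKMYT1 (-0.34) and CDKN3 (-0.32), and CDKN1B and CDKN3 were unrelated (-0.04).

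The mean transcript length that RSEM assigned to each member was compared between the 6 depleted and the 3 control libraries of a line in exact permutation tests (two-sided; 36 tests, in which the smallest p possible is 0.024). The lowest p was that of CDKN3 in SW480 with TIP60, from 718 bases in controls to 702 bases, and after adjustment over the 36 tests it was 0.86. With that floor and 36 tests, no single member could have passed after adjustment, so these values say nothing on whether the isoform mix changed.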

How the data were processed

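Total RNA of 30 libraries (10 groups of 3) was sequenced from 1 end. The authors deposited, per the file headers, an expected count and a TPM value per gene and library from RSEM. Trimmomatic 0.33, STAR 2.7.3a, RSEM 1.3.3 and the hg38 build are named in the submitters' processing notes; which gene annotation and which strand option RSEM was run with is not given in the sources used here. Gene positions were taken from GENCODE 29, in which 58444 of the 60617 gene IDs were found.

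Expected counts were rounded to whole numbers; between 9.13% and 13.1% of genes per library, and 43 of 270 member values, were not whole (WEE1 in 16 libraries and CDC25B in 11). Each line was fitted with its 15 libraries in edgeR 4.0.16 (R 4.3.3; filterByExpr, TMM scaling, robust quasi-likelihood test), and the lines were compared in 1 fit of all 30. For a target against control the log2 value is the mean of both siRNAs and the p-value the larger of theirs (1 where directions differ), with Benjamini-Hochberg adjustment over all genes tested and a threshold of 0.05. CPM values are TMM-scaled within a line. Replicate pairs differed by more than sampling noise (chi-square per gene 1.47 to 21.3 over 30 pairs), so no library was counted as a copy. The alternatives were DESeq2 1.42.0, other scalings and filters (none, or at least 1 CPM in 3 libraries), only the groups compared, the replicate number as a term, limma 3.58.1 on log2(TPM + 1) and log2(TPM + 0.1), and leaving out each library.

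The members, gene lists and tests were chosen with earlier results of these data known. Named genes are all 9 members, BRD8 and KAT5, protein-coding genes that overlap a member, and the 3 genes most like each member among those averaging at least 1 CPM. For the lists the plan was up to 4 called genes of largest change per list and comparison. The text departs from it in places, with more genes, smaller changes or genes not called. The scripts were tested on simulated data.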

Additional observations from a re-analysis of the deposited data

Results flagged for a closer look

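In the fit of all 30 libraries, 11 differences between the lines passed the test of the difference itself (edgeR, Benjamini-Hochberg). Each value is the response in SW480 minus the response in HCT116 on the log2 scale. For BRD8 depletion, where 34.4% of all 17411 genes tested differed, these were CDC25B (0.702), WEE1 (0.41), CDKN1B (-0.302) and CDKN2C (0.794). For TIP60 depletion, where 31.1% differed, they were CDC25A (-0.355), CDC25B (-0.191), CDKN3 (0.288), PKMYT1 (-0.302), CDKN1B (-0.492), CDKN2C (1.36) and CDKN2D (0.691). As given above, the TIP60 calls of CDKN3, CDKN2D, PKMYT1, CDC25A and CDC25B were lost under some alternatives. The BRD8 call of CDKN1B was lost on the TPM scale. CDKN2C had the widest gap for both targets, and for TIP60 it was called in opposite directions in the lines, lower in HCT116 and higher in SW480. The SW480 call rests on 40 to 107 counts per library. It was lost with DESeq2, with no filter, on the TPM scale and without any of several single libraries. For BRD8, CDKN2C was not called in SW480. Groups of 3 libraries were not tested for outliers.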

How the results depend on the processing

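Among values for single members, 1053 were computed under other settings: 982 kept their direction and side of the threshold, 58 lost the call, 9 gained it and 4 reversed. Of 1134 computed without 1 library, 1075 kept both, 57 lost the call, 2 gained it and none reversed. Values never called changed sign 26 and 11 times. The reversed values were CDC25B in the TIP60 response between lines (0.0022 at log2(TPM + 1) and 0.0042 at log2(TPM + 0.1)) and CDC25A between controls (-0.053 and -0.055). On these TPM scales, in that order, members called fell from 5 to 1 and 1 (BRD8, HCT116), from 3 to 1 and 1 (BRD8, SW480) and from 6 to 2 and 2 (TIP60, SW480), and to 4 from 7 in the TIP60 response at log2(TPM + 0.1). Genes called fell to 2358 and 2306 from 3891 (BRD8, HCT116) and to 2764 and 2738 from 4436 (TIP60, HCT116). For TIP60 in SW480, 3 members were called with DESeq2 and 3 with no filter. The cause was not tested. Without 1 library the members called ranged from 2 to 5 (BRD8, HCT116; 3 without siBRD8-6 library 1 and 2 without library 3), from 3 to 5 (TIP60, SW480; 3 without control library 1) and from 4 to 7 (TIP60 response; 4 without SW480 control library 3).

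Same-numbered libraries correlated between -0.056 and 0.15 in HCT116 (6 of 30 pairs over 0.1; 13 of 15 libraries best with their own number) and between -0.16 and 0.18 in SW480 (1 of 30; 2 of 15). Since not every pair exceeded 0.1 in either line, the libraries were not treated as paired; in HCT116 the best matches are a hint of shared numbers from the data, not from the design. With a replicate block, genes called for BRD8 in HCT116 were 4069 and for TIP60 4668, and in SW480 3941 and 3459; members called changed only for siTIP60-11 against siTIP60-2 in SW480 (4 beside 5).

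Scaling moved the median of all genes between the controls by 0.10 with DESeq2 and 0.12 with upper quartile scaling. Counts limit CDKN2C and CDKN2D most: SW480 libraries held as few as 34 and 20 counts.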
